A study of Homo sapiens with 9 samples.

Results

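Integrins are the receptors by which cells hold on to the extracellular matrix, and 9 of their subunit genes were followed after exposure to interferon beta in SUIT2 cells, a long-established line from a human pancreatic cancer. The genes were ITGA2, ITGA3, ITGA5, ITGA6 and ITGAV, which encode alpha chains, and ITGB1, ITGB4, ITGB5 and ITGB6, which encode beta chains. They were found by an exact match of the gene symbol in the deposited table of estimated counts and make up 9 of its 59609 genes. All 9 passed the filter on low counts, as did 16964 genes in all. The libraries formed 3 groups of 3: cells labelled as control treated, cells given 100 U/mL interferon beta (IFNβ, a type I interferon) for 6 h, and cells given the same dose for 24 h. No group carried a genetic change named in the labels, all wells had been seeded at 500000 cells, and the labels give the controls no duration of their own. Longer exposure and longer time in culture therefore cannot be told apart. The series set out to define which transcripts are altered by this exposure at each time.

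The depth of a control library was between 15101734 and 19632741 estimated counts, that of a 6 h library between 16799278 and 37420457 and that of a 24 h library between 25270387 and 40384407. Nothing in the labels ties the replicates to separate cultures, so each p-value reflects the spread of these samples alone, and that spread may be technical. All 8 ductal epithelial markers were detected, with a summed level of 4903 to 4964 CPM (counts scaled to library size) in the control libraries, 5543 to 5848 at 6 h and 5428 to 5554 at 24 h. KRT8 led this sum, at 2542 to 2596 CPM in control, while MUC1 was at 3.66 to 4.56. The markers moved in both directions, with 5 called higher and 3 lower at 6 h, beside 17.5% and 15.4% of all tested genes. At 24 h 6 were called higher and 1 lower, beside 24.7% and 25.3%. Markers of fibroblasts and endothelial cells summed to 8.44 CPM at most and acinar markers to 0.63 CPM. Of 13 leukocyte markers PTPRC, CD3E, MS4A1 and NKG7 were at 0 in every library, and the sum without LYZ and CD68 was at most 1.11 CPM. With these 2 genes, which epithelial cells can also express, the sum lay between 258 and 261 CPM in control, between 372 and 389 at 6 h and between 405 and 426 at 24 h, and its part in the results was not tested. The exposure itself was visible in 8 of 8 interferon-response genes, which were called higher at both times. Of all tested genes 17.5% were called higher at 6 h and 24.7% at 24 h. MX1, an antiviral GTPase, lay between 9.17 and 15.8 CPM in control, between 2012 and 2032 at 6 h and between 936 and 990 at 24 h. In bulk libraries fewer cells with a transcript and less RNA per cell cannot be told apart.

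Every integrin is a pair of 1 alpha and 1 beta chain, and the pairing sets what the receptor binds. The beta chain encoded by ITGB1 pairs with many alpha chains: with the product of ITGA2 it binds collagen, with those of ITGA3 and ITGA6 it binds laminins, and with that of ITGA5 it binds fibronectin. The product of ITGAV also pairs with those of ITGB5 and ITGB6, and these receptors recognise the RGD motif of vitronectin, fibronectin and the latent form of transforming growth factor beta. In epithelia the pair made from ITGA6 and ITGB4 anchors the cell through the hemidesmosome, where it holds laminin-332 outside the cell and, through plectin, the keratin filaments inside.

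Promoter sequence was available in the RefSeq table (GRCh38.p14) for 7 of the 9 genes, with 12 start-site windows of 300 bases that run from 250 bases before the start to 50 after it. ITGA3 and ITGB4 have no window in it. The first pair of sequences is shown because the transcripts moved in opposite directions at 24 h, that of ITGA5 upward and that of ITGA6 downward. Each run is the 250 bases before 1 annotated start, read 5′ to 3′ along the gene's own strand. That of ITGA5 lies at chr12:54419267-54419516 on the minus strand and that of ITGA6 at chr2:172427086-172427335 on the plus strand. Capitals mark the part of an AP-1 motif that falls before the start.
ITGA5: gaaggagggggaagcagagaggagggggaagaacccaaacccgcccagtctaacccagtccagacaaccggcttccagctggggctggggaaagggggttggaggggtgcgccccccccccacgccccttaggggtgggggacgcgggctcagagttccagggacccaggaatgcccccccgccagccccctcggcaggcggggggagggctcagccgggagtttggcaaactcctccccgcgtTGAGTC
ITGA6: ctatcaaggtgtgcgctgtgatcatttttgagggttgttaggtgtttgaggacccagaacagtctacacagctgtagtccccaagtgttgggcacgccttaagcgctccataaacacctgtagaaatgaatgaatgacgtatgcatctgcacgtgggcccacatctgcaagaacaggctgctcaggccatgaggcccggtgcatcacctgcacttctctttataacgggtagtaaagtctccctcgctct
The bases G and C made up 70.0% of the first run and 50.8% of the second. The 250 bases before another annotated start of ITGA6, not shown, held 71.6%, so the contrast rests on the start chosen.

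All 12 windows were searched on both strands for 3 motifs, without mismatches. The core of the interferon-stimulated response element, spelled as GAAA, then any 2 bases, then GAAA, was found in 1 of 12 windows, against 3.57% of all 35116 windows in the table. The gamma-activated site, spelled TTCNNNGAA, was found in 0 of 12, against 7.66%. The AP-1 motif, spelled TGANTCA, was found in 1 of 12, against 7.71%. The 2 matches are shown with their surroundings, with the motif in capitals.
ITGA5, AP-1: cctccccgcgtTGAGTCAttcgcctctggg
ITGB5, interferon-stimulated response element: aaaaagaaaaGAAAAAGAAAtgtaggtttt
The ITGA5 site lies at chr12:54419254-54419283 on the minus strand, and its motif begins 6 bases before the start. The ITGB5 site lies at chr3:124887896-124887925 on the minus strand, 231 bases before an alternative start that is 13735 bases from the 5′ end given in the deposited table. A match is a description of the letters and not evidence that a factor binds there.

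Levels of different genes were compared as CPM per kilobase of exon, with exon lengths from GENCODE release 29. The length is that of all annotated exons of a gene merged, not of the transcript in use, so the order between genes depends on it. In control cells ITGB1 was the most abundant of the 9, at 429 ± 8.41 CPM per kilobase (SD, n = 3), followed by ITGB4 at 247 ± 8.15, ITGA6 at 141 ± 1.39, ITGA3 at 100.0 ± 1.46 and ITGA2 at 92.3 ± 1.98. ITGB5 stood at 47.3 ± 0.53 and ITGAV at 23.7 ± 0.29. ITGB6 at 2.64 ± 0.22 and ITGA5 at 2.44 ± 0.16 closed the order, and these last 2 were the only neighbours whose control libraries overlapped. The SUIT2 repertoire was thus led by the transcripts of the laminin and collagen receptors, while those of the fibronectin receptor's alpha chain and of ITGB6 were rare. After 6 h the order of the means was the same, with overlapping libraries for ITGA3 and ITGA2. After 24 h 2 pairs of neighbours had changed places on this scale: ITGA2, at 89.8 ± 2.74, stood above ITGA3, at 71.8 ± 0.76, and ITGA5, at 3.85 ± 0.08, stood above ITGB6, at 1.71 ± 0.09. The exchange of ITGA5 and ITGB6 rests on the lengths used, as without them these genes were at 18.5 and 12.4 CPM already in control. Without lengths the means of ITGA2 and ITGA3 also changed places, from 730 and 980 CPM in control to 710 and 704 at 24 h. Their 24 h libraries then overlapped, at 686 to 729 and 696 to 710 CPM. All neighbours were separated in the 24 h libraries on the length-scaled values.

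**Figure D1:**
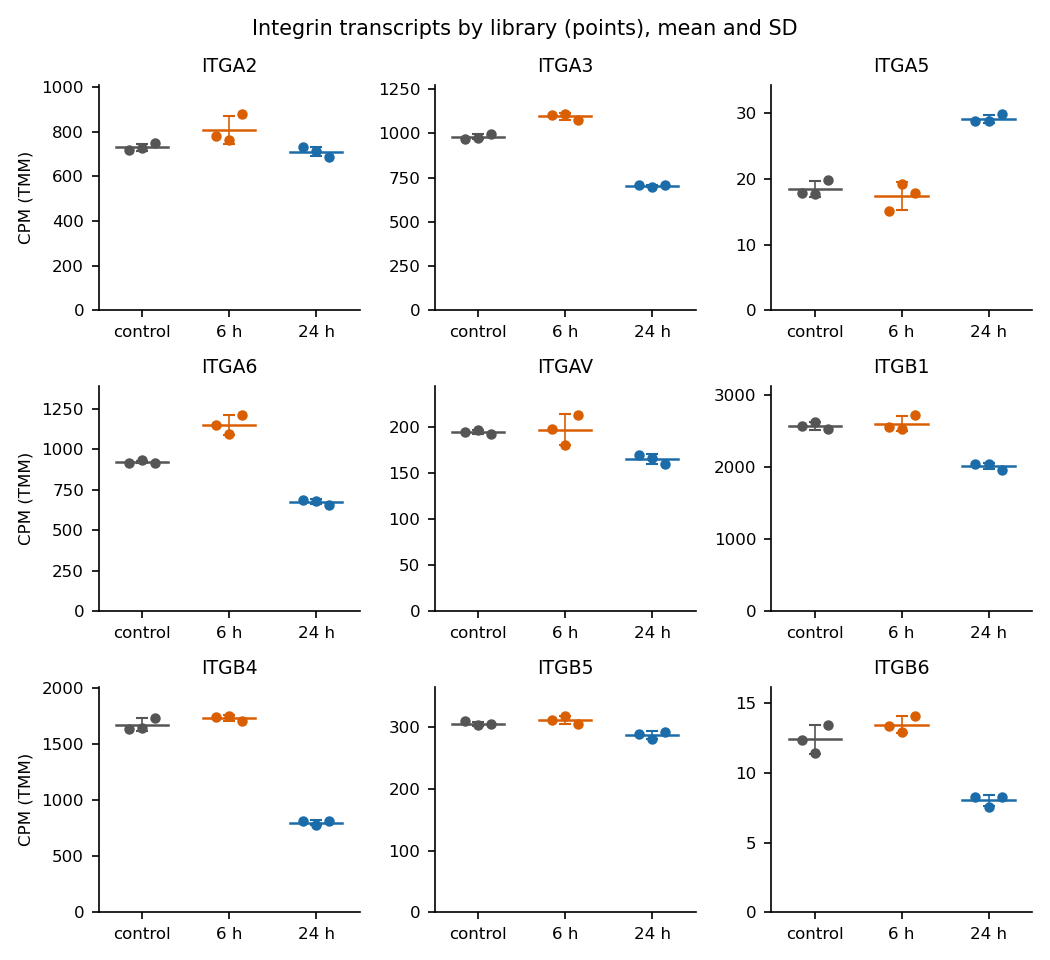
Level of each of the 9 integrin transcripts in CPM with TMM scaling (vertical axis, from 0, a different range in each panel) in the control, 6 h and 24 h groups; points are libraries, horizontal lines group means and bars the SD (n = 3). ITGB4 lies at 1636 to 1736 CPM in control and 775 to 817 at 24 h, while ITGA5 lies at 17.7 to 19.8 in control and at 28.8 to 29.9 after 24 h.

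Within the 9 genes, tests were taken from 1 edgeR quasi-likelihood model of all 16964 genes, with Benjamini-Hochberg adjustment over all of them and 0.05 as the threshold. Values are CPM with TMM scaling, a normalization that sets the bulk of genes to no change, and fold changes are log2 with their standard error (SE). Both treated groups were set against the same 3 control libraries, and the third comparison reuses both treated groups, so the 3 comparisons are not independent. At 6 h 3 of 9 integrin genes were called higher, 0 lower and 6 were not called, beside 32.9% of all tested genes called in either direction, 17.5% higher and 15.4% lower. At 24 h 1 of 9 was called higher and 7 lower, beside 50% of all genes called, 24.7% higher and 25.3% lower. Between 6 h and 24 h 1 of 9 was called higher and 8 lower, beside 57.2%, 26.6% and 30.6%. The median log2 fold change of the 9 was 0.05 at 6 h, -0.35 at 24 h and -0.37 between the times, against -0.0053, 0.0048 and -0.019 for all tested genes. The groups did not overlap for 3, 8 and 9 of the 9 genes in these comparisons, beside 42.1%, 60% and 62.2% of all genes.

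These directions rest in part on the scaling. The authors also deposited a normalized table with other multipliers per library, in which the median gene itself stood at 0.13 at 6 h, 0.37 at 24 h and 0.22 between the times, against values near 0 with TMM. Of all calls 88.4%, 96.4% and 83.3% were higher in that table, against 53.2%, 49.5% and 46.6% with TMM. The multipliers of that table did not offset depth in full. Control library 2 and 6 h library 2 shared 0.0476, at depths of 19632741 and 23447549 estimated counts. Replicates could also lie further apart there. The 6 h libraries of ITGB1 stood at 1991, 2608 and 3164 in that table, against 2568, 2530 and 2729 CPM with TMM. A call lost in that table therefore need not mean a smaller value. With library size as the only scaling the medians were -0.14, 0.08 and 0.20, and 21.2%, 64.1% and 76.9% of the calls were higher. Under it the 7 genes called lower at 24 h with TMM stayed below 0, from -0.99 for ITGB4 to -0.011 for ITGB5. At 24 h against control ITGA5 was called higher and ITGB4 lower under all 17 alternatives run. ITGA6 at 6 h was likewise called higher under all 17. The other calls at 24 h were lost in the authors' normalized table, in which ITGA3, ITGA6 and ITGB6 stayed below 0 without passing and ITGAV, ITGB1 and ITGB5 stood above 0. In that table ITGA2 was called higher at 24 h, at 0.40 (adjusted p = 0.0394 by limma). Relative to the median gene of that table, the 24 h values were -0.41 for ITGA3, -0.38 for ITGA6, -0.17 for ITGAV, -0.28 for ITGB1, -0.99 for ITGB4, -0.023 for ITGB5, -0.54 for ITGB6, 0.69 for ITGA5 and 0.03 for ITGA2.

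**Figure D2:**
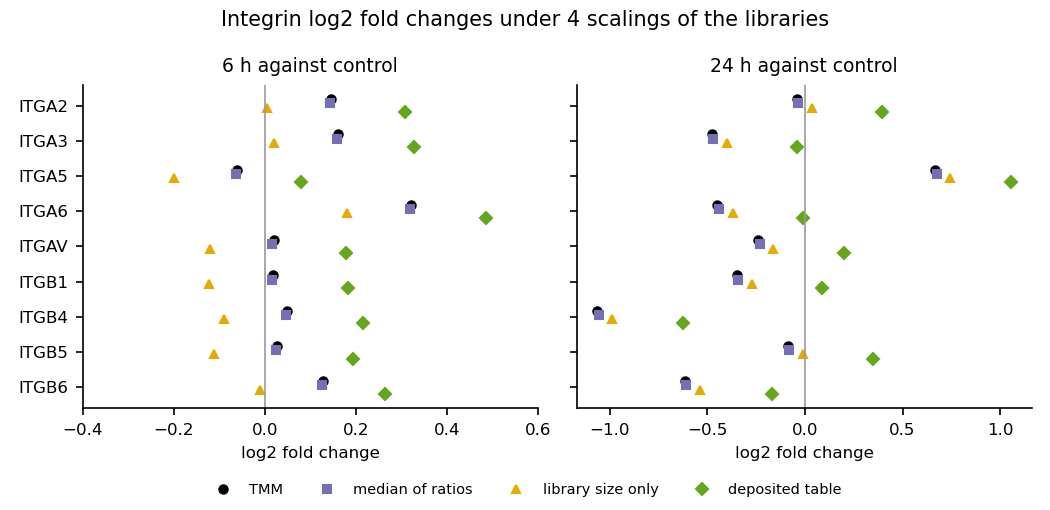
Log2 fold change (horizontal axes) of each integrin gene at 6 h (left) and 24 h (right) against control under 4 scalings: TMM (circles), median of ratios (squares), library size only (triangles) and limma on the authors' normalized table with a pseudocount of 1 (diamonds). The diamonds lie to the right of the circles for every gene, at -0.62 for ITGB4 and 1.06 for ITGA5 at 24 h, and at 24 h those of ITGA2, ITGAV, ITGB1 and ITGB5 lie on the other side of 0 from the circles.

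With TMM scaling ITGA6 and ITGA3, which encode alpha chains of laminin receptors, rose at 6 h and were below control at 24 h. ITGA6, whose product pairs with that of ITGB4 in hemidesmosomes, stood at 916, 933 and 919 CPM in the control libraries, 1149, 1093 and 1213 at 6 h, and 689, 681 and 659 at 24 h. The 3 groups did not overlap, with 6 h on top and 24 h at the bottom. The log2 fold change was 0.32 (SE 0.033, adjusted p = 1.36e-06 by edgeR) at 6 h, -0.45 (SE 0.033, adjusted p = 1.77e-08) at 24 h and -0.77 (SE 0.033, adjusted p = 2.27e-11) between the times. The fall against control was the part that depended on scaling: it was -0.0090 in the authors' normalized table, while the fall from 6 h to 24 h passed there too.

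ITGA3 encodes the alpha chain of the other main epithelial laminin receptor, which pairs with the product of ITGB1. Its levels were 969, 975 and 996 CPM in control, 1104, 1110.2 and 1074 at 6 h and 706, 696 and 710.1 at 24 h. As for ITGA6, no group overlapped another. The values were 0.16 (SE 0.023, adjusted p = 5.71e-05 by edgeR) at 6 h, -0.48 (SE 0.023, adjusted p = 1.62e-10) at 24 h and -0.64 (SE 0.023, adjusted p = 3.46e-12) between the times. The rise at 6 h was not called with library size only (0.021) or in the authors' normalized table (0.33). In that table the value was larger, but the 6 h libraries were spread from 856 to 1245.

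The collagen receptor's alpha chain, encoded by ITGA2, had the smallest value among the alpha chains called at 6 h. ITGA2 stood at 716, 727 and 747 CPM in control, 779.8, 763 and 879 at 6 h and 729, 715 and 686 at 24 h. The 6 h libraries lay above all others, with 1 of them well above its partners, and the control and 24 h libraries overlapped. The rise at 6 h was 0.15 (SE 0.043, adjusted p = 0.0167 by edgeR). Its call was kept in 13 of the 17 alternatives, with adjusted p in an overall range of 4.08e-06 to 0.934. The call was lost without control library 1, at 0.13 (adjusted p = 0.0717 by edgeR), and with library size only, at 0.0052 (adjusted p = 0.934 by edgeR). It was also lost in the authors' normalized table, at 0.31. At 24 h the value was -0.041 (SE 0.043, 95% interval -0.13 to 0.05, adjusted p = 0.455) and was not called, and between the times it was -0.19 (SE 0.043, adjusted p = 0.00161).

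ITGAV, the alpha chain shared by the RGD-binding receptors, was not called at 6 h and was called lower at 24 h with TMM scaling. It stood at 195, 197 and 192 CPM in control, 198, 179.9 and 213 at 6 h and 169.8, 166 and 159 at 24 h. The 6 h libraries spread around the controls, and the 24 h libraries lay below all others. The value at 6 h was 0.019 (95% interval -0.08 to 0.12, adjusted p = 0.813 by edgeR), although with library size only it was -0.12 (adjusted p = 0.0488), in a range of 0.0488 to 0.876 over the alternatives. At 24 h it was -0.24 (SE 0.048, adjusted p = 0.000717) against control and -0.26 (SE 0.048, adjusted p = 0.000266) against 6 h. In the authors' normalized table the 24 h value was 0.20.

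ITGA5, the alpha chain of the classical fibronectin receptor, was the only one of the 9 genes called higher at 24 h with TMM scaling. The control libraries held 17.9, 17.7 and 19.8 CPM, the 6 h libraries 15.2, 19.3 and 17.9, and the 24 h libraries 28.9, 28.8 and 29.9. Control and 6 h overlapped, and all 24 h libraries lay above both. The log2 fold change was 0.67 (SE 0.070, adjusted p = 1.12e-06 by edgeR) at 24 h, or 1.59-fold, and 0.73 (SE 0.067, adjusted p = 1.89e-07) between the times. At 6 h it was -0.060 (95% interval -0.23 to 0.11, adjusted p = 0.612) and turned to 0.014 without 6 h library 1. ITGA5 lies on chromosome 12 at 54395261 to 54419267 on the minus strand in the deposited hg38 coordinates. A short annotated gene on the other strand, Metazoa_SRP, overlaps it, with at most 5% of its count in any library.

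Among the beta chains ITGB4, the partner of ITGA6 that reaches the keratin cytoskeleton, fell most. ITGB4 stood at 1636, 1647 and 1736 CPM in control, 1742, 1750.4 and 1702 at 6 h and 811, 775 and 817 at 24 h. The 6 h libraries overlapped the controls, and the 24 h libraries lay far below both. The fall at 24 h was -1.06 (SE 0.028, adjusted p = 6.92e-14 by edgeR), or 2.09-fold, and -1.11 (SE 0.028, adjusted p = 3.62e-14) relative to 6 h. In the authors' normalized table the 24 h value was -0.62, also called. At 6 h ITGB4 was at 0.050 (95% interval -0.0089 to 0.11, adjusted p = 0.191), and it was called higher without control library 3, at 0.084 (adjusted p = 0.0318), and lower with library size only, at -0.090 (adjusted p = 0.0171), in a range of 0.0171 to 0.515. ITGB4 lies on chromosome 17 at 75721328 to 75757819 on the plus strand, and GALK1 on the other strand overlaps it with at most 1.79% of its count.

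ITGB1, the beta chain common to the collagen, laminin and fibronectin receptors, was called lower at 24 h and not at 6 h with TMM scaling. Its levels were 2571, 2629.5 and 2529 CPM in control, 2568, 2530.3 and 2729 at 6 h and 2053, 2044 and 1971 at 24 h. Control and 6 h overlapped and the 24 h libraries lay below both. The value at 6 h was 0.018 (95% interval -0.040 to 0.077, adjusted p = 0.672 by edgeR), against -0.12 with library size only (adjusted p = 0.00154), where it was called lower, in a range of 0.00154 to 0.829. At 24 h it was -0.35 (SE 0.027, adjusted p = 4.33e-08) against control and -0.37 (SE 0.027, adjusted p = 1.73e-08) against 6 h. The authors' normalized table placed the 24 h value at 0.090.

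The partners of ITGAV differed from each other. ITGB5 had the smallest called value of the 9 genes at 24 h. It stood at 309, 302 and 304 CPM in control, 311, 317 and 304 at 6 h and 289, 279.9 and 291 at 24 h. Control and 6 h overlapped, and the 24 h libraries lay just below. The 24 h value was -0.089 (SE 0.028, adjusted p = 0.0171 by edgeR), and 6 of 17 alternatives ended the call, with adjusted p from 0.00616 to 0.778. Among them, the value was -0.081 without control library 1, -0.071 without 24 h library 2, and -0.068 with no low-count filter. At 6 h ITGB5 was at 0.028 (adjusted p = 0.514), against -0.11 and called lower with library size only (adjusted p = 0.00588), in a range of 0.00588 to 0.802, and between the times it was -0.12 (SE 0.028, adjusted p = 0.00239), though 0.10 with library size only.

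ITGB6, an epithelial beta chain whose receptor activates latent transforming growth factor beta, was rare and became rarer. It stood at 12.3, 11.4 and 13.4 CPM in control, 13.4, 12.9 and 14.1 at 6 h and 8.25, 7.56 and 8.25 at 24 h. Control and 6 h overlapped, and the 24 h libraries lay below both. The 24 h value was -0.62 (SE 0.083, adjusted p = 1.57e-05 by edgeR) and that between the times -0.74 (SE 0.079, adjusted p = 9.19e-07), while 6 h was at 0.13 (95% interval -0.046 to 0.30, adjusted p = 0.261). In the authors' normalized table the fall against control was -0.17 and was not called. A gene on the same strand, AC092153.1, overlaps ITGB6 with up to 14.5% of its count, so reads of the 2 may be split between them.

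**Figure D3:**
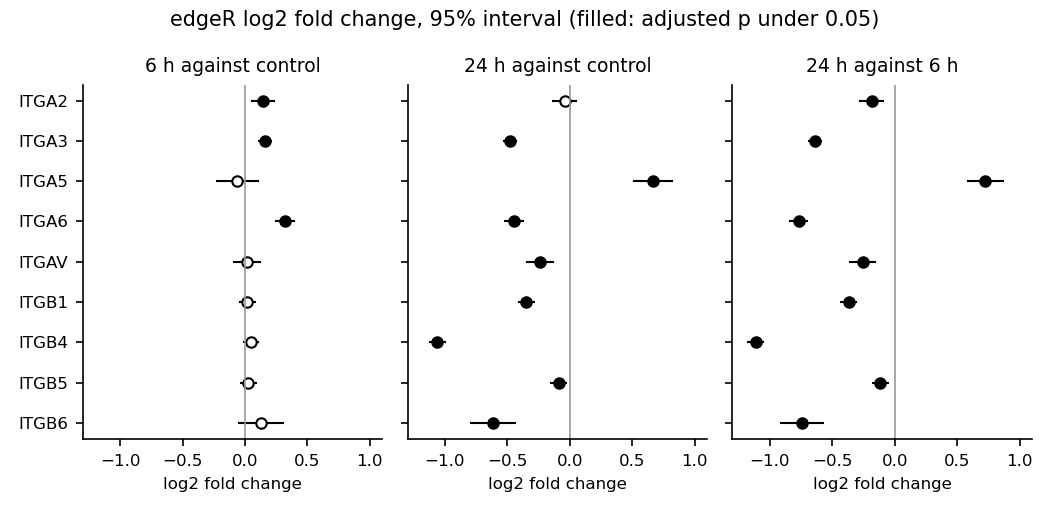
Log2 fold change (horizontal axes) of the 9 integrin genes in the 3 comparisons, from edgeR with TMM scaling, with bars for the 95% interval; filled points have an adjusted p under 0.05. ITGA5 is the only filled point right of 0 at 24 h with this scaling, and ITGB4, at -1.06, lies farthest to the left.

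Because the chains act in pairs, the ratio of an alpha to a beta transcript was taken within each library for 8 known pairs, as a log2 ratio of CPM. Such ratios do not depend on how libraries are scaled. With 3 against 3 libraries the exact two-sided permutation test cannot go below 0.1, which became 0.133 after adjustment over the 24 tests, so no pair could pass. The ITGA6 to ITGB4 ratio was -0.84, -0.82 and -0.92 in control, -0.60, -0.68 and -0.49 at 6 h and -0.23, -0.19 and -0.31 at 24 h. The groups did not overlap. The ratio was higher than control by 0.27 at 6 h and by 0.61 at 24 h (exact permutation p = 0.1 each). At 6 h ITGA6 was the chain called higher, and at 24 h both were called lower with TMM scaling, ITGB4 by more.

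The ITGA5 to ITGB1 ratio had the largest difference at 24 h of the 8. It was -7.17, -7.22 and -7.00 in control, -7.40, -7.03 and -7.26 at 6 h and -6.15, -6.15 and -6.04 at 24 h. Control and 6 h overlapped (difference -0.10, exact permutation p = 0.4), and the 24 h libraries lay above both, by 1.01 against control (exact permutation p = 0.1). ITGA5 remained a small share of the alpha pool, with 0.67% ± 0.039 (SD, n = 3) of the length-scaled alpha transcripts in control and 1.31% ± 0.052 at 24 h.

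The other alpha chains that pair with the product of ITGB1 moved apart from each other. At 24 h the ratio to ITGB1 was higher by 0.31 for ITGA2 and by 0.11 for ITGAV, and lower by 0.13 for ITGA3 and by 0.099 for ITGA6, each with groups that did not overlap (exact permutation p = 0.1). At 6 h it was higher by 0.30 for ITGA6 and by 0.12 for ITGA2 with no overlap. For ITGA3 it was 0.14 (p = 0.2) and for ITGAV -0.0037 (p = 1) at 6 h, both by the exact permutation test with overlapping groups. The ratio of ITGAV to ITGB6 was higher by 0.39 at 24 h, and that of ITGAV to ITGB5 was lower by 0.15, again without overlap (exact permutation p = 0.1).

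Among the length-scaled beta transcripts, ITGB4 held a smaller part at 24 h and ITGB1 a larger one. ITGB4 made up 33.8% ± 1.06 of it in control, 34.2% ± 1.11 at 6 h and 23.3% ± 0.73 at 24 h (SD, n = 3). ITGB1 made up 58.5% ± 1.05, 58.0% ± 1.30 and 66.2% ± 0.89, and ITGB5 6.45% ± 0.12 in control and 8.75% ± 0.22 at 24 h. In the alpha pool the share of ITGA6 was 38.8% ± 0.42, 41.9% ± 0.56 and 35.3% ± 0.20, and that of ITGA2 25.4% ± 0.33, 24.2% ± 0.93 and 30.6% ± 0.37. These shares describe transcripts and were not tested.

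**Figure D4:**
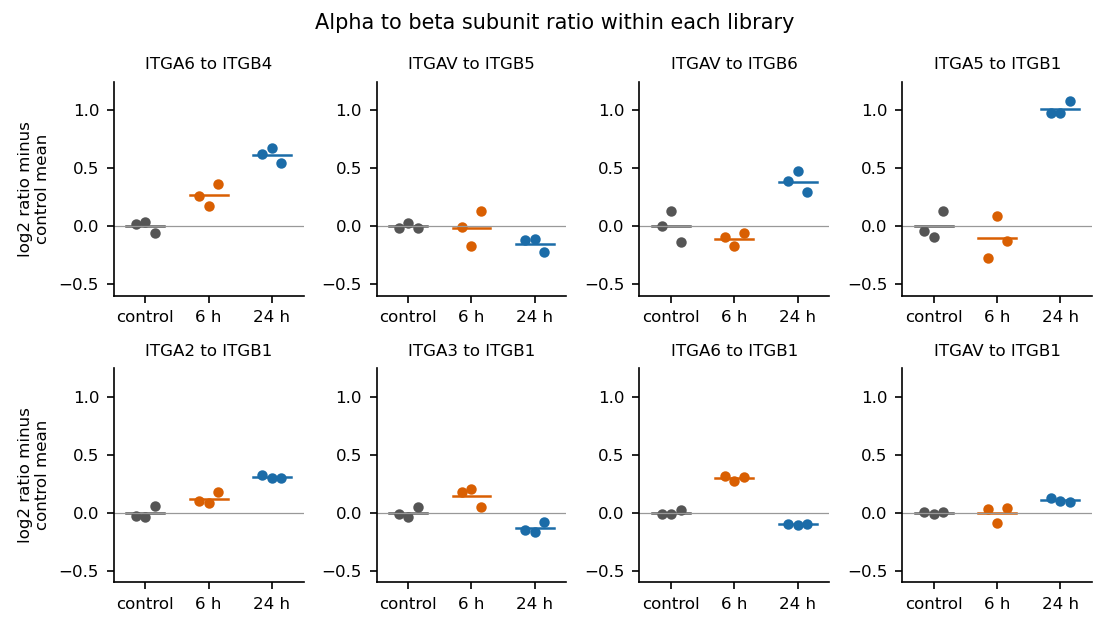
Log2 ratio of an alpha to a beta transcript minus the mean ratio of the control libraries (vertical axis) for 8 integrin pairs; points are libraries and horizontal lines group means (n = 3). ITGA5 to ITGB1 lies 1.01 above control at 24 h and ITGA6 to ITGB4 0.61 above, while ITGA3 to ITGB1 lies 0.13 below.

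Of the 17 other integrin genes 6 passed the low-count filter. ITGA1, another collagen-binding alpha chain, rose from 10.9 ± 0.56 CPM in control to 13.8 ± 0.086 at 24 h (SD, n = 3), a value of 0.34 (adjusted p = 0.00409 by edgeR). At 6 h it was at 0.28 (adjusted p = 0.0251), a call kept in 10 of 17 alternatives and lost, among others, without control library 2 and without 6 h library 1 or 3. ITGA7, a laminin-binding alpha chain, was at 10.2 ± 0.70, 8.16 ± 0.81 and 13.0 ± 0.57 CPM, with -0.34 at 6 h (adjusted p = 0.0109) and 0.35 at 24 h (adjusted p = 0.00316). Its 6 h call was lost without control library 1 and without 6 h library 3, and in the authors' normalized table, with adjusted p from 0.000588 to 0.694. ITGAE, the alpha chain that binds E-cadherin, was at -0.48 at 24 h (adjusted p = 0.000212), though at -0.035 in the authors' normalized table. ITGAE, which lymphocytes also express, was at 12.4 CPM or less in every library. Other integrins of white blood cells had few or no counts, with ITGA4 at 0 in every library and at most 2 counts of ITGAL, 7 of ITGAM, 4 of ITGAX, 8 of ITGB2 and 5 of ITGB7 in any library.

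Of the other beta chains, ITGB8 was at 88.2, 93.1 and 88.7 CPM in control and 108, 104 and 91.1 at 24 h, with 0.16 (adjusted p = 0.0335 by edgeR). Its groups overlapped, and the call was lost without control library 1 or 3 and without 24 h library 1 or 2, with adjusted p from 3.7e-05 to 0.161 over the alternatives. ITGB3, under 5 CPM in all groups and named after its values were seen, was at -0.59 at 24 h (adjusted p = 0.00296 by edgeR) and at -0.10 in the authors' normalized table.

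The laminins, which are the ligands of the receptors that contain the products of ITGA3 and ITGA6, were read together with collagens in a list of 21 genes, of which 14 were tested. At 24 h 1 was called higher and 10 lower with TMM scaling, beside 24.7% and 25.3% of all tested genes. The authors' normalized table, where 96.4% of all calls at 24 h were higher, had 4 higher and 5 lower. The median log2 fold change with TMM scaling was -0.47. LAMB3 and LAMA3 encode chains of laminin-332, the hemidesmosome's own ligand. LAMB3 was at 38.0, 38.1 and 38.3 CPM in control, 30.1, 30.3 and 27.7 at 6 h and 11.2, 11.3 and 12.2 at 24 h. No group overlapped another, with control on top and 24 h far below, and the 24 h value was -1.72 (SE 0.056, adjusted p = 9.84e-13 by edgeR). LAMA3 was at -1.20 (SE 0.041), and both calls also stood in the authors' normalized table, at -1.23 and -0.75. COL6A2, a collagen VI chain, was at -1.18 (SE 0.069).

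Beside 17.5% higher and 15.4% lower of all tested genes, the same list held 3 higher and 3 lower genes at 6 h. Among those with at least 5 CPM in 1 group the largest value was that of COL17A1, a transmembrane collagen of the hemidesmosome that binds the ITGB4 product. COL17A1 stood at 890, 904 and 912 CPM in control, 1316, 1312 and 1322 at 6 h and 600.04, 594 and 610.1 at 24 h. No group overlapped another, in the same order as for ITGA6. The 6 h value was 0.55 (SE 0.022, adjusted p = 1.37e-11 by edgeR). The 24 h value was -0.58 (SE 0.022, adjusted p = 7.1e-12), which in the authors' normalized table was -0.15 and not called. The next in size above that level at 6 h were the laminin chains LAMB3, at -0.39, LAMB1, at 0.37, and LAMA4, at -0.36. LAMA2, a laminin chain at 1.52 CPM or less in every library and named after its values were seen, was called higher at 6 h, at 0.72 (adjusted p = 0.0493 by edgeR). That call was kept in 1 of 17 alternatives, with adjusted p from 0.0348 to 0.19.

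A list of 16 genes held intracellular partners of hemidesmosomes and the tetraspanins, which bind laminin receptors in the membrane. It also held other membrane proteins, among them CAV1, PLAUR and SLC3A2, so its counts are not those of hemidesmosomes alone. Of the list 14 genes were tested. At 6 h 7 were called higher and 0 lower, beside 17.5% and 15.4% of all tested genes. With library size only, where 21.2% of all calls at 6 h were higher, 2 were higher and 4 lower. In the authors' normalized table, where 88.4% of all calls at 6 h were higher, none was called. At 24 h 2 were called higher and 9 lower, with a median of -0.30, beside 24.7% and 25.3% of all tested genes. The authors' normalized table, where 96.4% of all calls at 24 h were higher, had 5 higher and 3 lower. PLEC, which encodes plectin, the link from the ITGB4 product to keratin, was at 2589, 2653 and 2904 CPM in control, 2810.4, 2785 and 2863 at 6 h and 1158, 1097 and 1147 at 24 h. Its control and 6 h libraries overlapped and its 24 h libraries lay far below, as for ITGB4. The 24 h value was -1.26 (SE 0.035, adjusted p = 1.35e-13 by edgeR), and -0.82 in the authors' normalized table, also called.

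CAV1, the caveolar protein caveolin-1, was at -1.41 (SE 0.028) at 24 h, and PLAUR, the urokinase receptor, at -1.21 (SE 0.067), both also called in the authors' normalized table. SLC3A2, the heavy chain of an amino acid transporter that binds integrin beta chains, was at -0.69 (SE 0.036), and at -0.25 without a call in that table. DST, whose epithelial product is a hemidesmosome plaque protein, and CD151, the tetraspanin that binds laminin receptors, were named after their values were seen. They were at -0.53 (SE 0.077) and -0.22 (SE 0.040) at 24 h, and in the authors' normalized table at -0.093 and 0.22. The keratins KRT8 and KRT18 were higher at 6 h, by 0.31 and 0.30, with adjusted p = 6.73e-08 and 2.87e-08 by edgeR, though in the authors' normalized table with a pseudocount of 1 neither passed.

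**Figure D5:**
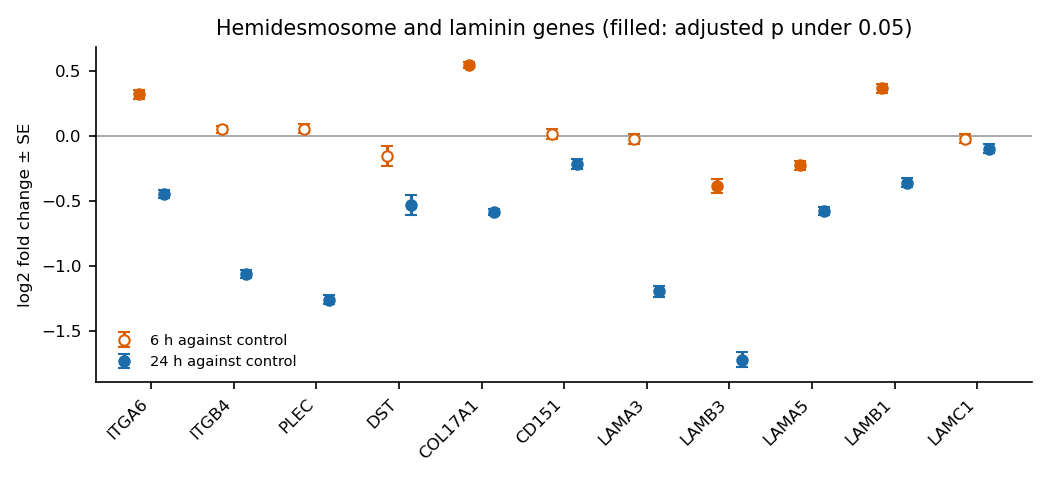
Log2 fold change from edgeR with TMM scaling (vertical axis, bars for the SE) at 6 h and 24 h against control for ITGA6, ITGB4, other hemidesmosome genes and laminin chains; filled points have an adjusted p under 0.05. All 11 genes lie below 0 at 24 h with this scaling, from -0.098 for LAMC1 to -1.72 for LAMB3, and ITGA6, COL17A1 and LAMB1 are the filled points above 0 at 6 h.

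Ligands of the receptors that contain the ITGAV or ITGA5 product made up a list of 19 genes, of which 14 were tested. At 24 h 1 was called higher and 7 lower, beside 24.7% and 25.3% of all tested genes. The authors' normalized table, where 96.4% of all calls at 24 h were higher, had 5 higher and 4 lower. At 6 h 3 were higher and 4 lower, beside 17.5% and 15.4% of all tested genes. TNC, the matrix protein tenascin C, was at 12.5, 14.0 and 12.1 CPM in control, 12.7, 11.6 and 13.4 at 6 h and 2.02, 1.85 and 2.09 at 24 h. Its 24 h libraries lay far below the others, with -2.69 (SE 0.11, adjusted p = 1.45e-11 by edgeR). THBS1, the matrix protein thrombospondin 1, was at -1.26 (SE 0.035) and was also called in the authors' normalized table, at -0.81. CCN1, an extracellular ligand of several integrins, was at -0.50 (SE 0.034) at 6 h and -0.70 (SE 0.033) at 24 h, without a call in that table. CCN2, a related ligand, was at 0.66 (SE 0.095) at 6 h and -0.23 (adjusted p = 0.0645 by edgeR) at 24 h, where it was called without control library 1 (adjusted p = 0.0359, in a range of 0.0359 to 0.36).

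Inside the cell, talins and kindlins bind the tails of beta chains and switch the receptors to their active form. A list of 15 genes of integrin activation had 14 tested. At 24 h 2 were called higher and 8 lower, beside 24.7% and 25.3% of all tested genes. The authors' normalized table, where 96.4% of all calls at 24 h were higher, had 4 higher and 2 lower. FERMT1, the kindlin of epithelial cells, was at 322, 327 and 341 CPM in control, 330.2, 317 and 329 at 6 h and 105, 106 and 101 at 24 h. The 24 h libraries lay far below the others, at -1.67 (SE 0.033, adjusted p = 2.32e-15 by edgeR), and at -1.23 and called in the authors' normalized table. FLNA, an actin cross-linker that competes with talin for beta tails, was at -1.14 (SE 0.025), and at -0.70 and called in that table. DOK1, an inhibitory adaptor of beta tails, was higher at 24 h, at 0.57 (SE 0.093), under all 17 alternatives. ITGB1BP1, which also inhibits activation, was at -0.36 (SE 0.036), and at 0.08 in the authors' normalized table.

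Focal adhesion adaptors and kinases made up a list of 25 genes, of which 23 were tested. At 6 h 5 were called higher and 9 lower, beside 17.5% and 15.4% of all tested genes. At 24 h 2 were higher and 15 lower, beside 24.7% and 25.3%. In the authors' normalized table the counts for this list were 2 and 0 at 6 h and 6 and 1 at 24 h. TNS4, an epithelial tensin that binds the ITGB1 tail, went from 34.0 ± 2.14 CPM in control to 46.5 ± 0.49 at 6 h and 16.0 ± 0.53 at 24 h (SD, n = 3). Its values were 0.46 (SE 0.049) and -1.08 (SE 0.053), both called under all 17 alternatives. ACTN1, an actin cross-linker, was at 0.64 (SE 0.031) at 6 h, also called under all 17, and at -0.22 (SE 0.032) at 24 h, where the authors' normalized table gave 0.22. SRC, the adhesion-linked tyrosine kinase, was at -0.50 (SE 0.045) at 6 h and 0.22 (SE 0.041) at 24 h, with the 6 h call not made in that table. PXN, the scaffold paxillin, was at -0.77 (SE 0.024) at 24 h, and at -0.33 without a call in that table.

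Genes of integrin recycling and glycosylation, 14 with 12 tested, were called in both directions. At 24 h 3 were called higher and 5 lower, with a median of -0.080, beside 24.7% and 25.3% of all tested genes. The authors' normalized table, where 96.4% of all calls at 24 h were higher, had 5 higher and 0 lower. RAB11FIP1, an adaptor of the recycling endosome, was at -0.42 (SE 0.043) at 6 h and 0.31 (SE 0.039) at 24 h, and the 6 h call was not made in the authors' normalized table. HAX1, which binds the ITGB6 tail, was at 0.32 (SE 0.046) at 6 h under all 17 alternatives.

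The genes whose levels ran most like the 2 integrin genes farthest from 0 at 24 h were sought among 7833 genes with at least 20 CPM, by Pearson's r of log2 CPM over the 9 libraries. For ITGB4 they included PLEC (r = 0.999) and CDC25B (r = 0.998), and for ITGA5 they were MON1B (r = 0.991), DSN1 (r = 0.989) and ZER1 (r = 0.989). The 9 points share 3 groups and their scaling, so any genes that move alike between groups correlate highly. At 24 h CDC25B was at -1.09 (SE 0.030), and MON1B at 0.30 (SE 0.037), DSN1 at 0.40 (SE 0.045) and ZER1 at 0.33 (SE 0.045).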

How the data were processed

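Total RNA from 9 samples of the SUIT2 line was sequenced on an Illumina instrument, per the labels' protocols, and STAR 2.7.8a, Partek and hg38 are named in the submitters' processing notes. The annotation, counter and strand setting were not given in the sources used here. Reads of overlapping genes can therefore be shared. The authors deposited estimated counts per gene, which need not be whole. The design assumed counts, so whole numbers were made by rounding. A second table from the authors is a deposited normalized signal table, in which 0.0001 was added to each count and each library has 1 multiplier; a comparison of both tables showed this. Groups came from the sample titles.

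The 9 integrin genes and the 13 gene lists were chosen with earlier results of these data known. The quasi-likelihood test of edgeR 4.0.16 (R 4.3.3, limma 3.58.1) was run with TMM factors, in 1 model of 3 groups with 6 residual degrees of freedom, after filterByExpr with a count of at least 10 and a total of at least 15. CPM values use TMM factors. Each SE is the size of the log2 fold change over the root of its F statistic. The common biological coefficient of variation was 0.0392. Between replicates chi-square per gene averaged 1.60 to 5.65, so none was merged. Subunit ratios were tested by exact permutation. From each list up to 4 called genes per comparison with the largest change and at least 5 CPM in 1 group could be named; not all of them are, and some are not reported here. All 9 integrin genes are reported, with genes from among the 3 most similar for 2 of them.

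Alternatives were DESeq2 1.42.0, median-of-ratios scaling, library size only, no low-count filter, only the 2 groups compared, a replicate block, each library left out, and limma on the deposited normalized values as log2, after adding 1 or 0.1. These come to 17. The scripts were tested on simulated data in which the changed genes were set. Python 3.11.15, pandas 2.3.3, numpy 2.4.6 and matplotlib 3.10.9 were used.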

Additional observations from a re-analysis of the deposited data

Results flagged for a closer look

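Levels differed between 6 h and 24 h for all 9 integrin genes by edgeR with TMM scaling, beside 57.2% of all tested genes. Both times share 1 control group without a stated duration. Longer exposure and longer time in culture cannot be told apart in this difference. Expressed as 24 h minus 6 h on the log2 scale, the difference was 0.73 for ITGA5. It was negative for the other 8: -1.11 for ITGB4, -0.77 for ITGA6, -0.74 for ITGB6, -0.64 for ITGA3, -0.37 for ITGB1, -0.26 for ITGAV, -0.19 for ITGA2 and -0.12 for ITGB5. The adjusted p ran from 3.62e-14 for ITGB4 to 0.00239 for ITGB5. Those of ITGA5, ITGA6, ITGB4 and ITGB6 were called in the same direction under all 17 alternatives. The call and direction were kept under 15 of 17 for ITGA3 and ITGB1, and under 14 for ITGA2, ITGAV and ITGB5.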

How the results depend on the processing

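Changing the tool to DESeq2, the scaling to median of ratios, or the fit to only the 2 groups compared altered no call of the 9 integrin genes. No pairing of the samples by replicate number was detected, which does not exclude shared handling. Same-numbered libraries correlated at -0.11 to 0.039 in their deviations, and 1 of 9 libraries correlated best with its own number. With a replicate block the 24 h value of ITGB4 was -1.06, the calls of the 9 were as before, and genes called at 24 h numbered 4020 higher and 4113 lower.

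With library size only, genes called numbered 1669 higher and 6192 lower at 6 h and 8229 higher and 2475 lower between the times. The 6 h values were 0.0052 for ITGA2 and 0.021 for ITGA3, no longer called, and -0.12 for ITGAV, -0.12 for ITGB1, -0.090 for ITGB4, -0.11 for ITGB5 and -0.011 for ITGB6. At 24 h ITGA2 was at 0.037 and ITGB5 at -0.011. Between the times ITGA2 was at 0.031, ITGAV at -0.040 and ITGB5 at 0.10. Without a low-count filter ITGB5 at 24 h was at -0.068 and not called.

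In the authors' normalized table, with a pseudocount of 1 and then 0.1, genes called higher numbered 1615 and 1621 at 6 h and 8575 and 8398 at 24 h. Genes called lower numbered 211 and 233 at 6 h, 321 and 319 at 24 h, and 975 and 941 between the times. With either pseudocount the 6 h values were 0.31 for ITGA2 and 0.33 for ITGA3, not called, and 0.079 and 0.080 for ITGA5. At 24 h they were 0.40 for ITGA2, -0.039 for ITGA3, -0.0090 for ITGA6, 0.20 for ITGAV, 0.090 for ITGB1, 0.35 for ITGB5, and -0.17 and -0.18 for ITGB6. Between the times they were 0.09 for ITGA2, -0.37 for ITGA3, 0.020 for ITGAV, -0.094 for ITGB1, and 0.15 and 0.16 for ITGB5.

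Leaving out 1 library gave ranges of 0.079 to 0.19 for ITGA2, 0.034 to 0.084 for ITGB4, -0.12 to 0.014 for ITGA5, -0.046 to 0.082 for ITGAV and -0.015 to 0.041 for ITGB1 at 6 h, and -0.099 to -0.071 for ITGB5 at 24 h. The change of sign came without 6 h library 1 for ITGA5 and without 6 h library 3 for ITGAV and ITGB1. The 6 h ratio of ITGAV to ITGB5 ran from -0.087 to 0.064 and that of ITGAV to ITGB1 from -0.028 to 0.038. The cause of these changes was not tested. Depth limits ITGA5 and ITGB6 most, with group means of at most 29.2 and 13.4 CPM.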
